A study of Mus musculus with 20 samples.

Results

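The collagen genes were taken as the protein-coding genes of the GRCm38 gene table whose symbols read Col, digits, a, digits, such as Col1a1. The rule found 44 genes among 21631 protein-coding genes on chromosomes 1 to 19 and X. It uses only the symbol, so no measured value chose the members. Chromatin accessibility around them was read from ATAC-seq, in which a transposase cuts open DNA. The cells were C2C12, an established line of mouse myoblasts able to fuse into myotubes.

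The libraries came from wild-type C2C12 cells (WT) and from C2C12 cells in which Setd2 was knocked out (KO). Setd2 encodes the histone methyltransferase that places the third methyl group on lysine 36 of histone H3 in transcribed gene bodies. Cells were taken on day 0 (D0, for which the labels name no medium), day 1 (D1) and day 5 (D5). On the later days they had grown either in control medium, abbreviated CTL, or with methionine restricted, abbreviated MR, which makes 10 groups of 2 libraries. The 2 KO libraries of a group are 2 KO lines, line 1 and line 2, and the 2 WT libraries are numbered replicates. Nothing in the labels says that the WT replicates are separate cultures, so p-values measure the spread between these libraries, which may be technical. With 2 lines, what is common to KO lines and what belongs to a single line can be set side by side but not generalised.

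The lists held between 20847 and 69881 peaks, except those of KO line 1 at D5, which held 644 (CTL) and 1881 (MR). Those 2 short lists were left out of every test unless stated, so KO at D5 is line 2 alone, and 10 WT and 8 KO libraries remained. Gene-end peaks at muscle genes were present: Des, Cdh15 and Chrna1 in 18 of 18 libraries and Myod1 in 17, while Myog had a peak in 8 WT and 0 KO libraries and Myf5 in 0. Of the markers of other cell types, Pecam1, Cdh5, Tek, Ptprc, Cd3e, Epcam, Krt5, Pdgfra, Dpt, Acan and Sp7 had a peak in 0 libraries, whereas Sox9 had one in 18, Matn3 in 17, Cd68 in 13, Runx2 in 12, Krt14 in 8, and Thy1 and Bglap in 1.

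Collagens are triple-helical proteins of the extracellular matrix. Fibrillar collagens form the tensile fibrils of tendon, bone and the connective tissue of muscle, type IV collagens form the network of basement membranes, type VI collagens form beaded filaments that join the basement membrane to the surrounding matrix, and FACIT collagens sit on the surface of fibrils. Transmembrane collagens stay anchored in the cell membrane, and multiplexins are basement membrane collagens that carry sugar chains. A peak in ATAC-seq marks open DNA, such as a promoter or an enhancer, and is not a measure of the gene's RNA.

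Overlapping peaks of the 20 lists (1 bp or more in common) were joined, which gave 101352 regions, of which 465 lay within 10 kb of a collagen gene span. A region within 1 kb of either end of a collagen gene is called a gene-end region here, and there were 38 of them. The other 427 are called elements: of their assignments to genes, 366 lay inside a span and 67 in a flank, and 6 elements were shared by 2 collagen genes. The gene table holds no exons, so whether an element is exonic or intronic was not determined.

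The promoters below are shown because the data bear on them directly: that of Col11a1 is the gene-end region that differed by genotype, that of Col16a1 was open in all 18 libraries, and those of Col3a1 and Col1a2, the genes of type III collagen and of the second chain of type I collagen, were called in 3 and 0 of the 6 tested D5 libraries. Each is read from RefSeq on GRCm38.p6, upstream of the annotated start and outside the gene's own span, plus strand, with the bases inside a merged ATAC region in capitals. Col11a1 is chr3:114030290-114030478, Col16a1 is chr4:130047590-130047816, Col3a1 is chr1:45311288-45311537 and Col1a2 is chr6:4505368-4505617.
Col11a1: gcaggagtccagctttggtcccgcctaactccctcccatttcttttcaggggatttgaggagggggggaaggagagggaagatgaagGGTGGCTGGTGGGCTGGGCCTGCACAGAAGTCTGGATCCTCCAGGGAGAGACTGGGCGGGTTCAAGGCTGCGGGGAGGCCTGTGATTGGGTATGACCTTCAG
Col16a1: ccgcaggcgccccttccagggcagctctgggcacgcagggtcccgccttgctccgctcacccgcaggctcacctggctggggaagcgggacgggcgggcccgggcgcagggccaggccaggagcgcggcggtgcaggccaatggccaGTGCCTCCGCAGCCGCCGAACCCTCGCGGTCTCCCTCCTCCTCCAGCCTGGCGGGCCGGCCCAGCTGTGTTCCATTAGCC
Col3a1: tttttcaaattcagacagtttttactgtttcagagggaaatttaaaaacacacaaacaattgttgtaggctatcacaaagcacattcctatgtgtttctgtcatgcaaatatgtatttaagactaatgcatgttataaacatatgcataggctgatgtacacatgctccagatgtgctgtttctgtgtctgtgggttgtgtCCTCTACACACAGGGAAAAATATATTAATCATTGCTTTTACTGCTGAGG
Col1a2: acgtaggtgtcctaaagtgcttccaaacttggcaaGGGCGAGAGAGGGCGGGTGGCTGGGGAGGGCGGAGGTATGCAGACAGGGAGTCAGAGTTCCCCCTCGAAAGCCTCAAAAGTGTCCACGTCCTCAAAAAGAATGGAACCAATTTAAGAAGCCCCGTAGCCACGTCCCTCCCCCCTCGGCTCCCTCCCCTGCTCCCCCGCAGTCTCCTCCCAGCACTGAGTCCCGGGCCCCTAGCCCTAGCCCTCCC
The regions go on past the printed bases: they span 114030377 to 114030524 at Col11a1, 130047737 to 130047933 at Col16a1, 45311489 to 45311734 at Col3a1 and 4505403 to 4505817 at Col1a2. In the 250 bases upstream of the start, 62.4% of bases were G or C at Col11a1, 75.6% at Col16a1, 35.2% at Col3a1 and 62% at Col1a2.

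Upstream sequences of 250 bases were found for 35 of the 44 collagen genes and searched on both strands for short motifs. The GC box GGGCGG occurred in 21 of 35 collagen genes (60%) and in 32.9% of all 27025 genes searched, and was found at Col11a1, Col16a1 and Col1a2. The 27025 are more than the 21631 protein-coding genes, so this background is not the set from which the collagen genes were taken. CCAAT occurred in 12 collagen genes (34.3%, against 34.5% of all), among them Col11a1, Col16a1 and Col1a2. It also occurred upstream of another annotated start of Col9a1, inside that gene's span, which is not in this count. TATAAA occurred in 5 (14.3%, against 13%), among them Col3a1. The E-box CAGCTG, the form bound by MyoD, occurred in 6 (17.1%, against 12.8%), among them Col16a1, and the AP-1 motif TGANTCA in 1, Col6a1 (2.86%, against 6.87%). These are matches of letters, not measured sites, and no motif in the list contains another.

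By number, most regions at collagen genes lay away from the gene ends, as did most of the sequence searched. The same split over all genes is not given. A gene-end peak was called in at least 1 of 18 libraries at 25 collagen genes (56.8%), near the 57.8% of all protein-coding genes. The collagen genes with one in all 18 were Col5a2, Col16a1 and Col23a1, 6.82% of collagen genes against 25.7% of all genes. At Col23a1 the region called throughout lies at the far end of the gene, 293.3 kb into it, and the region at its start had a peak in 5 WT libraries and in 7 KO libraries. Of the 19 genes without any gene-end peak, 18 had elements, and Col9a1 was the only collagen gene with no region at all. Collagen genes held a median of 7 elements and up to 33, at Col4a2. They are long, with a median span of 114410 bp against 17329 bp for all genes, and held a median of 8.22 regions per 100 kb against 5.67 for all genes.

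By class, described without a test, gene-end peaks were most frequent among fibrillar and transmembrane genes, apart from the single anchoring fibril gene. Of 11 fibrillar genes, 9 had a gene-end peak in some library, against 3 of 9 FACIT genes, 3 of 6 type IV genes, 3 of 6 type VI genes, 3 of 4 transmembrane genes, 1 of 2 multiplexins and 2 of 3 genes of types VIII and X. The fibrillar genes without one were Col24a1 and Col27a1, and Col27a1 nevertheless held 27 elements. A RefSeq start of Col27a1 lies inside its span, and the region there, at 63215254 to 63215481 on chromosome 4, had a peak in 2 WT libraries and 2 KO libraries. Likewise a region at a start inside Col6a5, a type VI gene, at 105960603 to 105960988 on chromosome 9, had a peak in 8 WT libraries and 3 KO libraries, so the 1 kb rule misses starts inside a span. The multiplexins Col15a1 and Col18a1, whose C-terminal fragments are released as restin and endostatin, had a median of 22.5 elements, the transmembrane genes 15, the FACIT genes 6 and the type VI genes 3.5.

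Among the genes of muscle connective tissue, Col5a2, a chain of the type V collagen that starts fibrils, had a gene-end peak in all 10 WT libraries and all 8 KO libraries. Col5a1, its partner chain, had one in 10 WT and 7 KO libraries, missing only in KO line 2 at D5 MR. Col1a1, the main chain of type I collagen, had one in 8 WT and 8 KO libraries and was missing only in both WT libraries at D5 CTL. Col3a1 was called in 7 WT and 8 KO libraries, missing in both WT D5 CTL libraries and in WT D5 MR replicate 2. Col1a2 was called in 5 WT and 4 KO libraries, none of them at D5.

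Among the type VI genes, Col6a2 was called in 7 WT and 8 KO libraries, Col6a3 in 3 and 6, and Col6a1 in 3 and 5. Col4a1 and Col4a2, the chains of the common basement membrane, start from opposite strands of a shared region and had gene-end peaks in the same 6 WT libraries, all of D0 and D1, and in KO line 1 at D0 and D1 CTL. The same calls at both genes come from the same regions, so they are 1 observation. Col18a1 was called in 10 WT and 7 KO libraries, and Col15a1, Col6a4, Col6a5 and Col6a6 in 0.

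**Figure D1:**
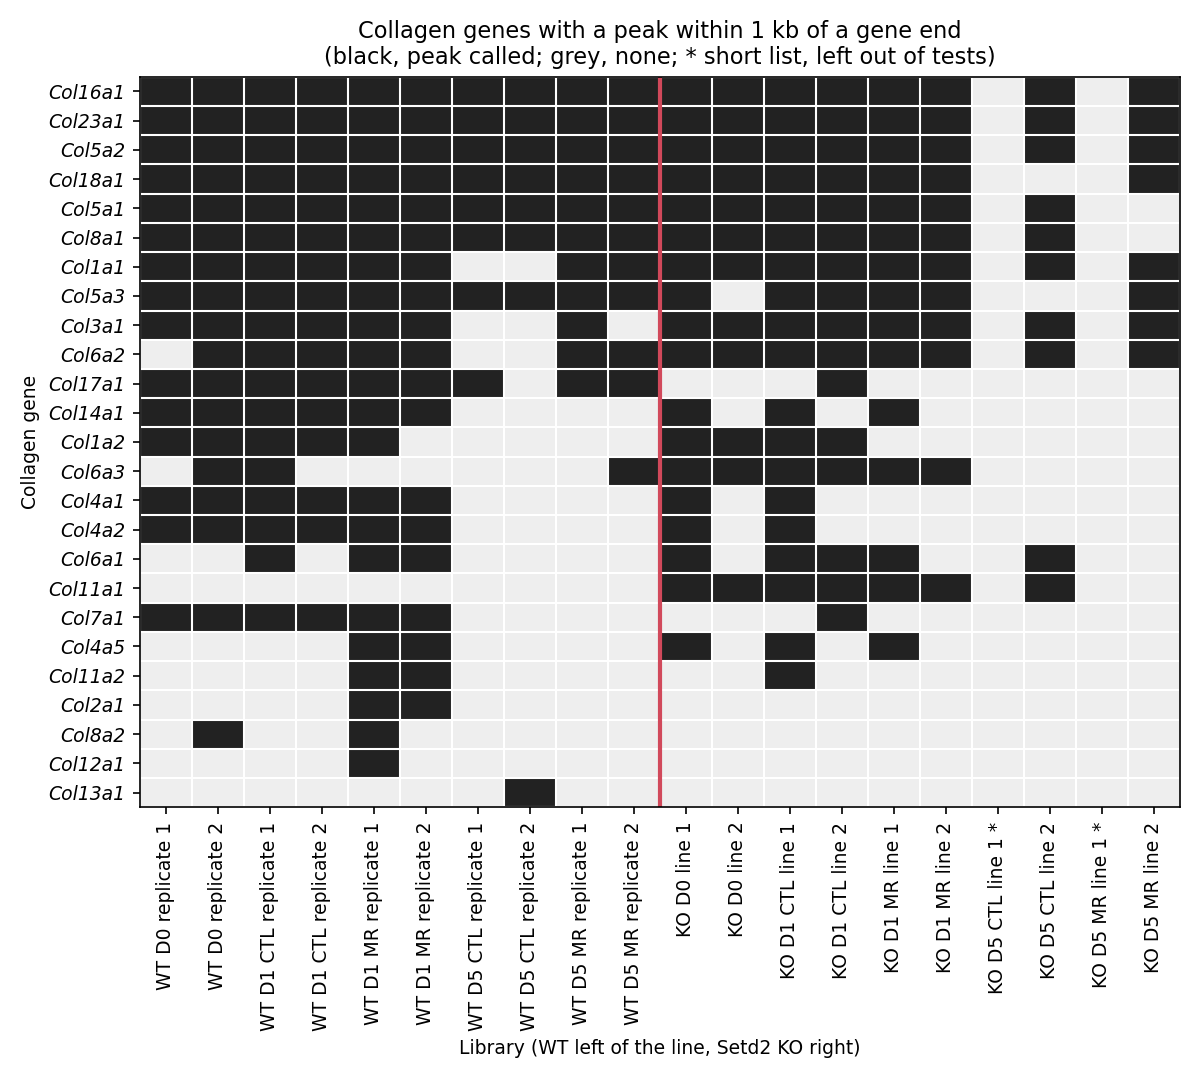
Gene-end calls of the 25 collagen genes with a peak in any of the 18 libraries. Rows are genes and columns are the 20 libraries, black where a peak was called within 1 kb of a gene end. Col11a1 is black only in KO columns, and Col4a1, Col4a2, Col7a1 and Col14a1 are grey in every D5 column.

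KO and WT were compared at gene ends, gene by gene over the whole genome, within each day and medium, by an exact two-sided permutation test of library labels with Benjamini-Hochberg adjustment and a threshold of 0.05. A gene could be tested where its number of calls allowed a p of 0.05 or less, which held for 1631 genes, 5 of them collagen genes. The difference is the share of KO libraries with a peak minus the share of WT libraries, averaged over the 5 conditions. The 8 KO libraries come from 2 lines, and libraries of a line deviated together, but every test by genotype permutes them as separate libraries. Col11a1, a minor fibrillar collagen best known in cartilage, was the collagen gene that passed the threshold: its peak appeared in 0 of 10 WT libraries but 7 of 8 KO libraries, all 6 of D0 and D1 and line 2 at D5 CTL. The difference was 0.8 (exact permutation p = 0.00154, adjusted p = 0.0484). The groups overlap in KO line 2 at D5 MR, which had no peak. The region, 114030377 to 114030524 on chromosome 3, covers the start of the annotated gene span at 114030479. The authors' fold enrichment of its peaks was 3.77 to 7.22. Over the genome, 1.1% of tested genes were called higher in KO and 2.08% lower, so 1 of 5 is a count too small to read against that background. Under the alternatives that gave a value, its adjusted p lay between 0.051 and 0.253 by the same exact permutation test, past the threshold in none of them. In the fits without 1 WT replicate number, 1 KO line or the D5 libraries, and under a replicate block over all numbers, which rearranges labels among libraries of the same number, 0 genes of the genome passed, and its difference there lay between 0.8 and 1.

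Col17a1 and Col7a1 had the next lowest p-values, and neither passed. Col17a1, a transmembrane collagen of the epidermal attachment to the basement membrane, had its peak in 9 of the 10 WT and in 1 of the 8 KO libraries, a difference of -0.8 (exact permutation p = 0.00617, adjusted p = 0.0759). That peak lies past the far end of Col17a1 and within 1 kb of an end of Slk, so it may be counted for either gene. Col7a1, which forms the anchoring fibrils below epithelia, was called in all 6 WT libraries of D0 and D1, in KO line 2 at D1 CTL and in no D5 library, a difference of -0.5 (exact permutation p = 0.0278, adjusted p = 0.0881). Its region lies 323 bp upstream of the start.

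Averaged over the conditions, the number of collagen genes with a gene-end peak differed between genotypes by less than the spread within groups, but the conditions differed among themselves. It was 15 and 18 in WT at D0, 18 and 12 in KO lines 1 and 2 at D0, 18 and 16 in WT at D1 CTL, and 19 and 16 in KO at D1 CTL. At D1 MR it was 22 and 19 in WT against 15 and 12 in KO, with no overlap and a difference in means of -7. Over all genes of the genome, 43.7% had a gene-end peak in KO at D1 MR and 51.9% in WT. At D5 the number was 10 in KO against a mean of 8 in WT with CTL, and 8 against 11 with MR. The average over conditions was lower in KO by 1.8 genes, with a spread within groups of 2.18 (SD), and it was lower in 3 of 5 conditions.

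Individual genes did differ in how many of their elements were open. For each of the 15131 protein-coding genes with an element, the elements called in a library were divided by the called regions of that library and given per 10000, and KO was compared with WT by the same exact test. This test was added after the data were examined. KO carried more elements at 9 of 42 collagen genes (21.4%) and fewer at 5 (11.9%), against 5.21% and 8.35% of all genes tested. Genes with many elements are called more often: among the 3385 genes with at least 7 elements, 9.6% were called higher and 15.8% lower, against 7 and 3 of the 23 such collagen genes. Over all 44 members the median difference was 0.04 elements per 10000 regions, against 0 over all genes. The members as a set were not tested against the rest.

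Col23a1, a transmembrane collagen, rose most when whole lists were used. WT libraries held 0.212 to 0.891 elements of Col23a1 per 10000 regions (median 0.513, n = 10) and KO libraries 0.921 to 3.68 (median 1.89, n = 8). The groups did not overlap, and the mean difference was 1.33 (exact permutation p = 0.000514, which is the least this design can give, adjusted p = 0.0133). In numbers of elements, WT held 1 to 5, KO line 1 held 17, 22 and 12 at D0, D1 CTL and D1 MR, and KO line 2 held 3, 9 and 4 there and 5 and 2 at D5. Line 1 thus held more of them than line 2 at each D0 and D1 condition, and per 10000 regions both lines lay above every WT library. What share of all genes tested shows no overlap is not given here, for this gene or for Col13a1.

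Col13a1, a transmembrane collagen of the neuromuscular junction, had the largest fall. WT libraries held 5 to 11 elements at every day and medium, KO line 1 held 3 at D0, D1 CTL and D1 MR, and KO line 2 held 0 in all 5 of its libraries. Per 10000 regions this was 1.24 to 4.03 in WT (median 1.66) and 0 to 0.628 in KO (median 0), with no overlap and a mean difference of -1.89 (exact permutation p = 0.000514, adjusted p = 0.0133). Col26a1, a collagen outside the main classes, fell by 0.882 (exact permutation p = 0.000514, adjusted p = 0.0133): its elements numbered 2 to 12 in WT and 0 to 6 in KO, and the 2 tested KO libraries of D5 held 0.

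Among the fibrillar genes, Col27a1, a cartilage collagen, rose by 1.02 elements per 10000 regions (WT mean 2.01, KO mean 3.03, adjusted p = 0.0191 by the permutation test). Its lowest KO value, 2.35, lay under the highest WT value, 2.47. Col1a2 rose by 0.545 (WT 0.538, KO 1.08, adjusted p = 0.0191, exact permutation test), Col11a1 by 0.253 (WT 0.0359, KO 0.289, adjusted p = 0.0203) and Col5a3 by 0.203 (WT 0.773, KO 0.976, adjusted p = 0.0203). Col11a2 fell by 0.245 (WT 0.73, KO 0.485, adjusted p = 0.0203, exact permutation test). Col5a3 rests on 2 to 4 elements a library in either genotype and Col11a1 on 0 to 3, so the length of a list weighs heavily in their scaled values.

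Among the FACIT genes, Col22a1, the collagen of the junction between muscle and tendon, rose by 0.979 (WT 1.31, KO 2.29, adjusted p = 0.0191 by the permutation test). Col14a1 rose by 0.782 (WT 0.764, KO 1.55, adjusted p = 0.0203, exact permutation test) and Col12a1 by 0.495 (WT 0.962, KO 1.46, adjusted p = 0.0283). Col9a3, of cartilage, fell by 0.374 (WT 0.474, KO 0.0999, adjusted p = 0.0203, exact permutation test). Of the others, Col8a1, a network-forming collagen of vessels and the cornea, rose by 0.557 (WT 0.812, KO 1.37, adjusted p = 0.0133, exact permutation test).

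Col4a1 fell by 0.764 (WT 2, KO 1.24, adjusted p = 0.0378 by the permutation test), and the lines differed: KO line 1 held 14, 11 and 9 elements of it at D0, D1 CTL and D1 MR, within the 8 to 13 of WT there or 1 above, and KO line 2 held 2, 4 and 3. Col4a2, which shares 6 of its elements with Col4a1, differed by -0.233 (WT 3.89, KO 3.65, adjusted p = 0.572, exact permutation test). Of the other genes of muscle connective tissue, Col15a1 differed by 0.661 (adjusted p = 0.0565, exact permutation test), Col6a3 by 0.314 (0.32), Col1a1 by 0.239 (0.423), Col6a1 by 0.22 (0.452), Col5a2 by 0.213 (0.137), Col3a1 by 0.111 (0.378), Col18a1 by -0.107 (0.902), Col5a1 by -0.162 (0.675) and Col6a2 by -0.00842 (0.859), and none of these passed.

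**Figure D2:**
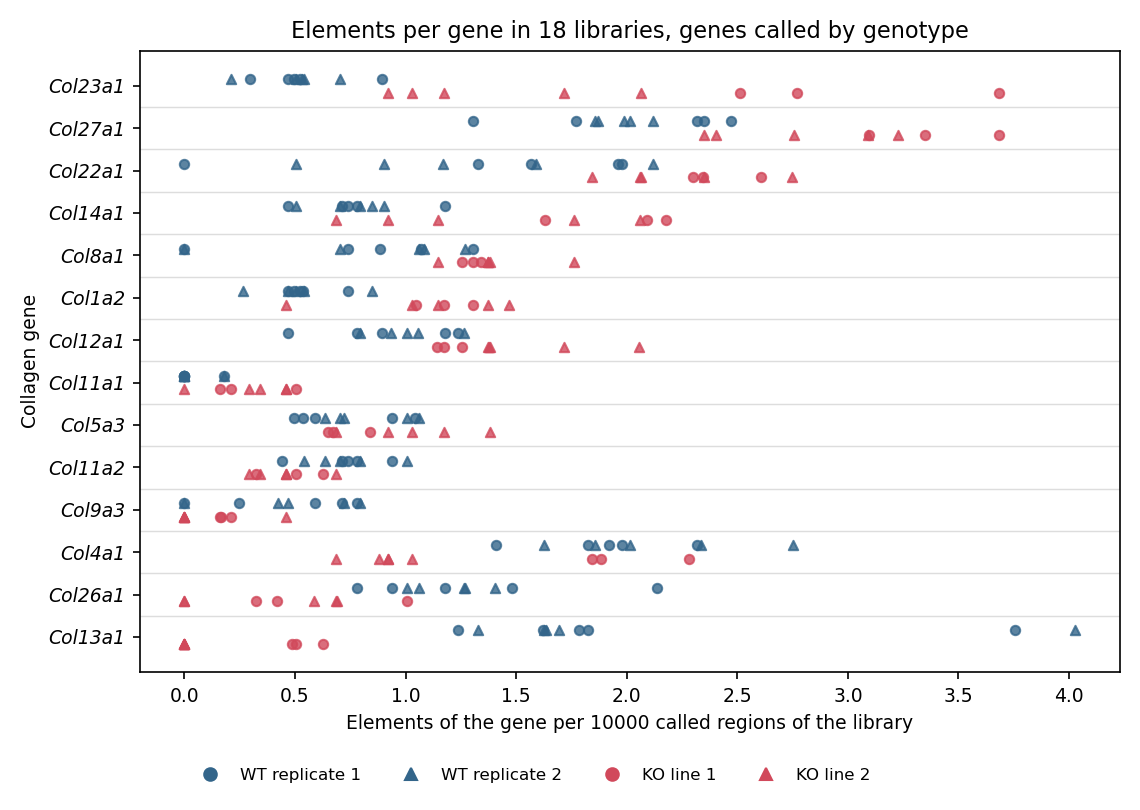
Elements per 10000 called regions for the 14 collagen genes that passed the threshold by genotype, ordered by the difference. Each point is 1 of 18 libraries, blue for WT and red for KO, with circles for replicate or line 1 and triangles for 2. KO and WT points separate fully at Col23a1 and Col13a1 and overlap at the other 12 genes. The share of all genes tested that separate in this way is not given.

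Of these 14 genes, 5 also passed with the strongest 20000 peaks of each list, with a -log10 q of at least 2 and with a peak cover of 50%: Col23a1, Col12a1 and Col22a1 above WT, and Col13a1 and Col26a1 below. With the strongest 20000 peaks, which evens out the length of the lists, Col23a1 differed by 0.454, less than Col22a1 (1.88), Col12a1 (0.964) and Col27a1 (0.791). Col14a1 differed by 0.297 there (adjusted p = 0.676, exact permutation test), and Col11a1, Col27a1, Col5a3, Col8a1 and Col9a3 did not pass either. The cover of 50% ended the calls of Col11a1, Col11a2, Col14a1, Col1a2, Col5a3 and Col8a1, and the -log10 q of at least 2 those of Col11a1, Col1a2, Col4a1 and Col8a1. With the 2 short lists included, Col1a2, Col5a3, Col8a1, Col12a1, Col14a1, Col22a1, Col23a1 and Col27a1 did not pass.

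Without KO line 1, 8 of the 14 genes stayed past the threshold: Col23a1, Col12a1, Col8a1 and Col5a3 above WT, and Col13a1, Col26a1, Col4a1 and Col11a2 below, while Col1a2, Col22a1 and Col27a1 had an adjusted p of 0.0654 by the exact permutation test. Without KO line 2, without either WT replicate number, without the D5 libraries, and under the replicate block over all numbers, 0 genes of the whole genome passed, so these fits called no gene, collagen or other. The difference at Col23a1 was 1.32 to 2.46 in them and 0.865 without KO line 1, and that at Col13a1 was -1.9 to -1.06 and -2.05. All of these fits have fewer arrangements of labels than the 1944 of the main test, so a lack of calls cannot be read as a lost difference. How many of all genes tested passed without KO line 1 is not given, so the calls of that fit cannot be read against a background. KO at D5 is line 2 alone, so leaving out line 2 also removes D5, whereas leaving out line 1 does not. The numbers of calls in these 2 fits thus do not compare the lines. Unscaled numbers of elements gave 4 calls, with Col23a1 above WT and Col13a1 and Col26a1 below among them, and the count over the genome is not given.

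Element by element, 19646 regions of the genome and 81 collagen elements could be tested by genotype. Peaks were called more often in KO at 4 collagen elements (4.63% of all regions tested were) and less often at 5 (6.86% of all). With an unadjusted p under 0.05 there were 17 (21%, against 14.1% of all regions tested) and 23 (28.4%, against 33.2%). Both called shares of the collagen elements, 4 and 5 of 81, were near those backgrounds. The count was 16 with the 2 short lists included, with 3 higher and 13 lower, and 40 without KO line 2, with 32 higher and 8 lower; over the genome these fits called 3513 and 5767 regions. Without WT replicate 1, without WT replicate 2, or where a peak had to cover 50% of the region, 0 regions of the whole genome passed.

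The clearest element lay in the flank of Col27a1, at 63344292 to 63344602 on chromosome 4, where the annotation also places Orm1, an acute-phase plasma protein gene. No WT library (0 of 10) and every tested KO library (8 of 8) had its peak, so the groups did not overlap (difference 1, exact permutation p = 0.000514, adjusted p = 0.0327). Its difference was 1 in those fits without a call as well. What share of all regions tested separates in this way is not given. At D0 and D1, 3 collagen elements (0.703%) were called in all 6 KO libraries and not in WT, against 0.353% of all regions. The other way round there were 5 (1.17%), against 0.976%. A second element, inside Col27a1 at 63278909 to 63279136, was found in 0 of the 10 WT and 7 of the 8 KO libraries, missing in line 2 at D5 MR (difference 0.8, adjusted p = 0.0327 by the permutation test). The other elements called more often in KO were 2 inside Col23a1, at 51329987 to 51330652 on chromosome 11 (peaks in 2 WT libraries and 8 KO libraries) and at 51481746 to 51481923 (0 and 6), both with an adjusted p of 0.0403 by that test.

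The elements called less often in KO included 3 inside Col13a1 on chromosome 10, at 61866288 to 61866459 (peaks in 7 WT libraries and 0 KO libraries, adjusted p = 0.0403 by the permutation test), 61943518 to 61944022 (9 and 0, adjusted p = 0.0327) and 61965165 to 61965787 (8 and 0, adjusted p = 0.0403). The others lay in flanks. That of Col18a1, at 77049069 to 77049211 on chromosome 10, overlaps Slc19a1 and was called in 8 WT and 0 KO libraries (adjusted p = 0.0327, exact permutation test), and that of Col9a3, at 180595600 to 180595730 on chromosome 2, lies at Ogfr and was called in 7 and 0 (adjusted p = 0.0403). On chromosome 10 as a whole, regions present in all libraries also ranked lower in KO, by a median of 5.25 percentile points. On chromosome 4 they ranked higher by 1.2. They ranked higher by 3.27 on chromosome 3, which holds Col11a1, and by 3.45 on chromosome 15, which holds Col14a1 and Col22a1. On chromosome 17, which holds Col11a2, they ranked lower by 3.74. Col26a1 and Col4a1, which fell, lie on chromosomes 5 and 8, where regions ranked higher by 1.69 and 0.923. Against WT at D0 and D1, the medians of KO lines 1 and 2 were -0.109 and 4.63 on chromosome 3, 4.05 and -0.0868 on chromosome 4, and 0.231 and -7.53 on chromosome 17. Both lines moved the same way on chromosome 10 (-3.91 and -6.34), chromosome 15 (1.98 and 5.89) and chromosomes 5 and 8. What part these shifts have in the calls was not tested.

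**Figure D3:**
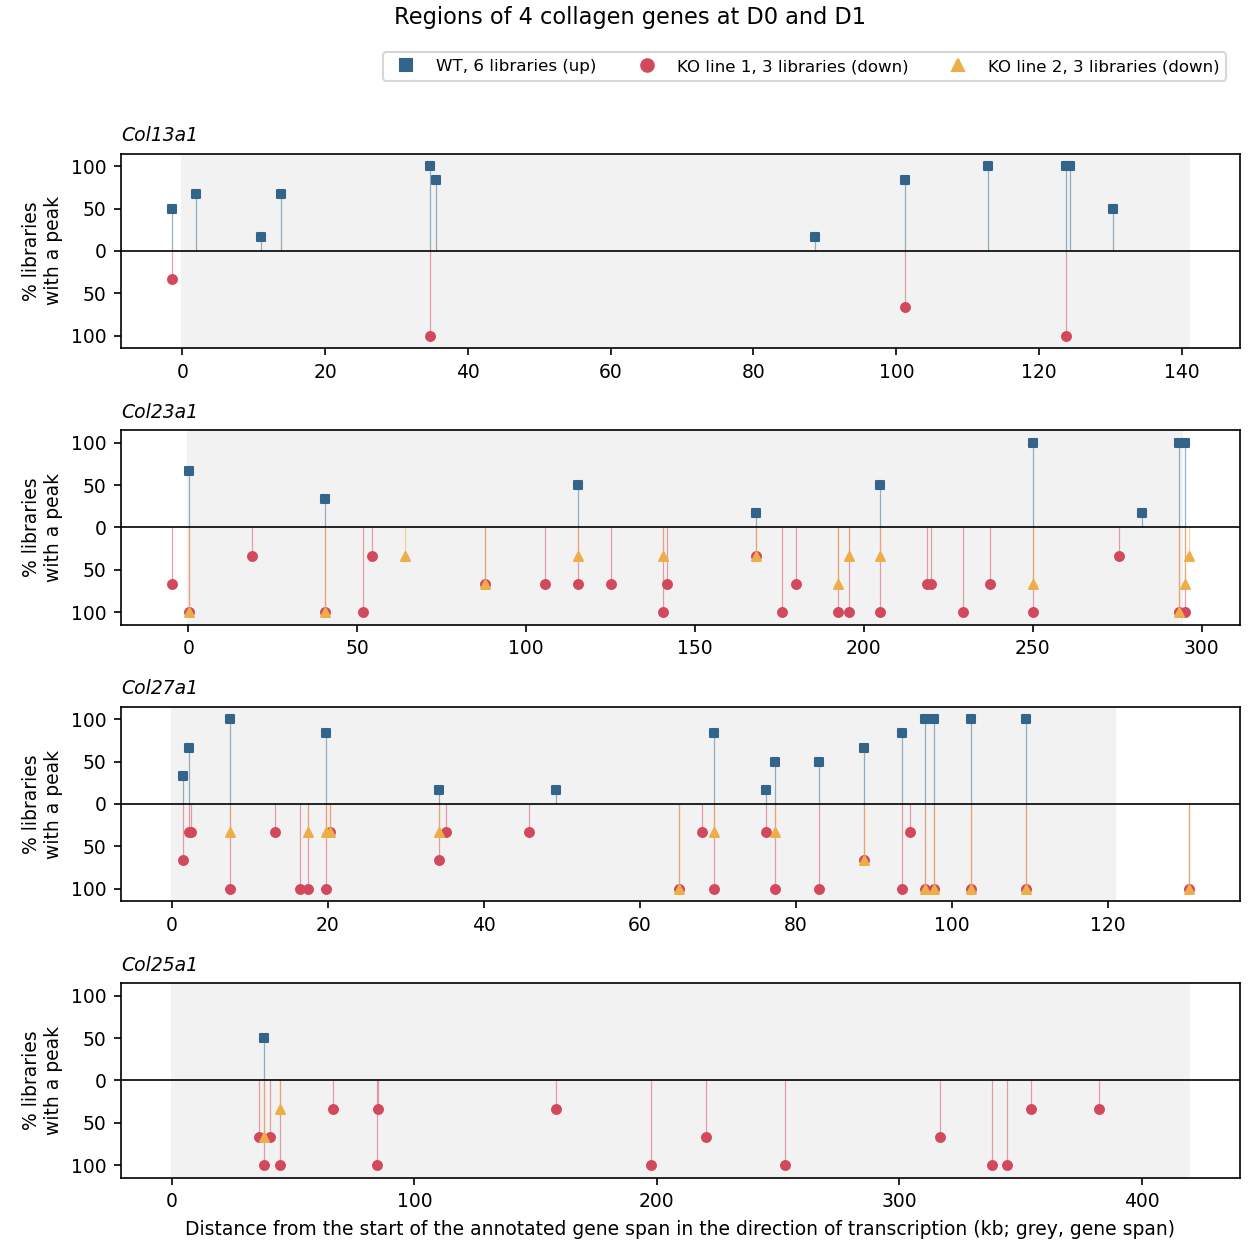
Regions of Col13a1, Col23a1, Col27a1 and Col25a1 along the gene, in kb from the start of the span (grey) in the direction of transcription. Blue squares above 0 give the percent of the 6 WT libraries of D0 and D1 with a peak there, and red circles and yellow triangles below 0 that of the 3 libraries of KO line 1 and of KO line 2. Col13a1 has no triangle, and most symbols of Col25a1 are circles.

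Col25a1, a transmembrane collagen needed for the innervation of developing muscle, had many elements in 1 KO line and few in the other. Its elements numbered 11, 13 and 10 in KO line 1 at D0, D1 CTL and D1 MR, 1, 2 and 0 in KO line 2 there, and 0 or 1 in each of the 10 WT libraries. The difference between genotypes did not pass (0.606 elements per 10000 regions, exact permutation p = 0.0602, adjusted p = 0.195). Over all collagen genes, 18 elements (4.22%) were called in all 3 D0 and D1 libraries of KO line 1 and in no other D0 or D1 library, against 2.56% of all regions. Of these, 5 belong to Col25a1 and 3 to Col23a1. For KO line 2 there was 1 such element (0.234%, against 0.128% of all regions). A single line gives no replicates of a line, so this was not tested.

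Totals of elements followed the lines as well. KO line 1 held 274, 281 and 214 collagen elements at D0, D1 CTL and D1 MR, KO line 2 held 109, 176 and 138, and WT held 151 to 244 in the 6 libraries of these days. The KO mean over the 5 conditions was higher than WT by 1.2 elements with a spread within groups of 56.5 (SD). Without line 2 it was higher by 63.7, over D0, D1 CTL and D1 MR alone. Without line 1 it was lower by 33.4, over all 5 conditions. These values cover different conditions, so they do not compare the lines. Per 1000 called regions, KO held 3.74 to 4.71 and WT 3.6 to 3.94 at D0 and D1. KO was higher in 4 of 5 conditions, by 0.436 on average with a spread of 0.289 (SD).

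**Figure D4:**
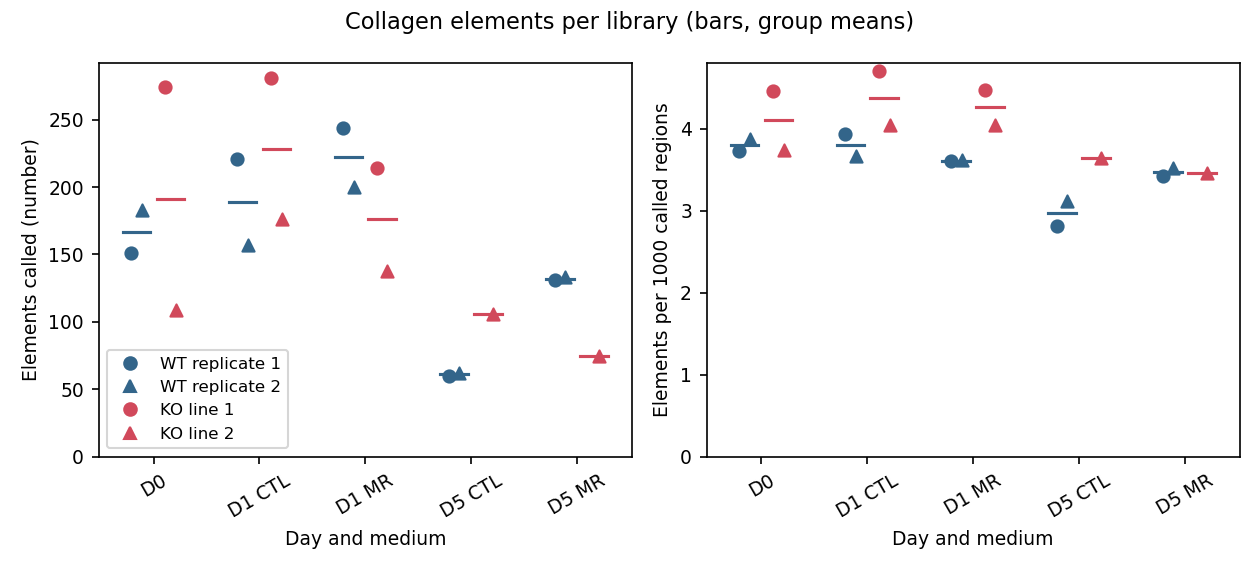
Collagen elements per library as a number (left) and per 1000 called regions (right), by day and medium. Points are libraries, blue for WT and red for KO, and bars are group means; the 2 short lists are not drawn. KO line 1 holds the most elements at D0 and D1 CTL, and all D5 libraries hold 60 to 133.

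The strength of a region was compared as its percentile by the authors' -log10 p-value among the 11144 regions called in all 18 libraries, 0 for the weakest and 100 for the strongest. Of these, 32 were collagen regions, 29 elements and 3 gene ends. In KO, 8 of the 32 (25%) ranked higher and 2 (6.25%) lower, against 11.2% and 11% of all 11144. The median difference over the 32 was 3.23 percentile points, against 0.55 over all, and the median collagen percentile was higher in KO in 5 of 5 conditions, by 7.87 with a spread of 4.05 (SD). The fit without KO line 1 leaves 1 KO library in each condition, and how many of the 11144 regions passed in it is not given. Without KO line 2, without WT replicate 1, without WT replicate 2, without the D5 libraries, and under the replicate block over all numbers, 0 of the 11144 regions passed.

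The largest difference in rank was at a region 22.1 kb from the low-coordinate end of Col1a1, in its flank at 94957972 to 94958651 on chromosome 11. WT libraries lay at percentiles 10.2 to 40.9 (median 20.8) and KO libraries at 28.7 to 77.6 (median 61.6), a mean difference of 34.4 (exact permutation p = 0.00103, adjusted p = 0.0116). The 6 KO libraries of D0 and D1 lay at 55.3 to 77.6, above every WT library, and the overlap comes from KO line 2 at D5 MR. In the fits where no region passed, which have fewer arrangements of labels, its difference was 34.4 to 46.9. The gene end of Col5a2 ranked at 11.3 to 53.4 in WT (median 32.8) and 32.3 to 75.1 in KO (median 53.7), with a difference of 25.5 and the same adjusted p, so it was open in every library but ranked higher in KO. An element 103.4 kb into Col15a1, at 47310827 to 47311250 on chromosome 4, was among the strongest of the common regions, at 58.1 to 89.7 in WT and 87.9 to 95.7 in KO (difference 13.2, adjusted p = 0.00833 by the permutation test).

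The other regions that ranked higher in KO belonged to Col12a1, Col16a1 and Col7a1. An element inside Col12a1 differed by 27 percentile points (adjusted p = 0.0338, exact permutation test), an element inside Col7a1 by 24.6 (0.0263) and one in its flank, inside Pfkfb4, by 23.2 (0.00833). At Col16a1, an element inside the gene differed by 21 (0.0145) and the promoter printed above by 13.4 (0.0405), where it moved from percentiles of 1.9 to 26.3 in WT to 4.41 to 57.5 in KO. The regions that ranked lower lay inside Col27a1, at 63310344 to 63310827 on chromosome 4 (difference -33.2, adjusted p = 0.00833, exact permutation test), and inside Col5a1, at 27887866 to 27889483 on chromosome 2 (difference -23.9, adjusted p = 0.0116). Col27a1 thus gained calls at some elements and lost rank at one that was open in every library.

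**Figure D5:**
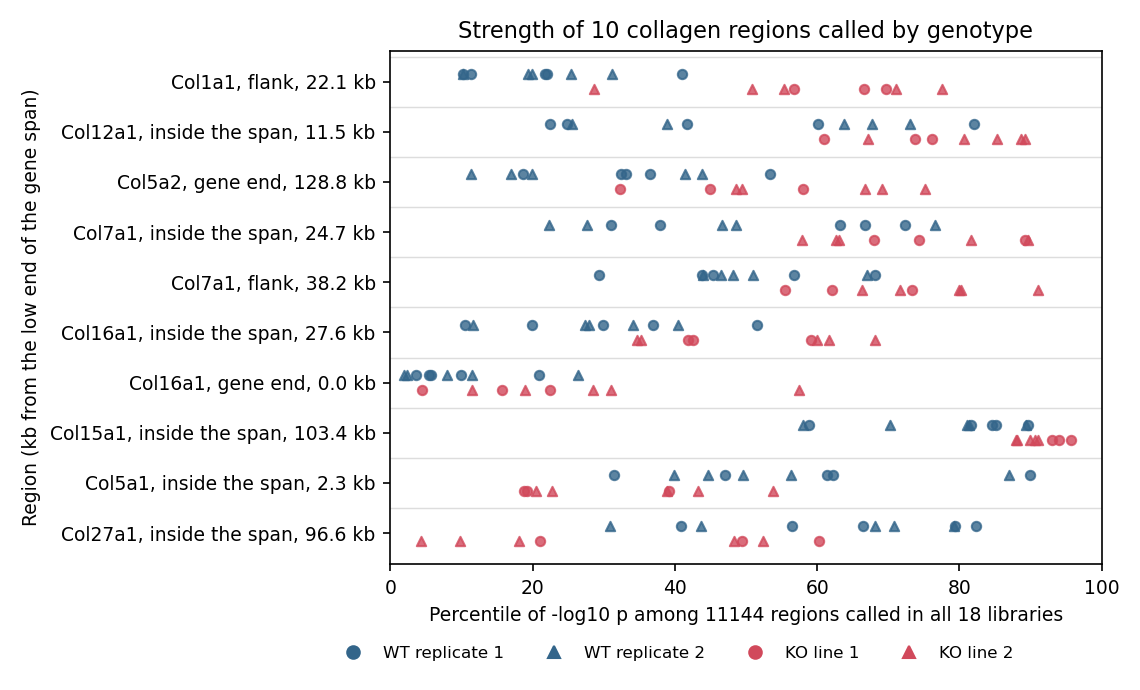
Percentile of 10 collagen regions that passed the threshold by genotype, among 11144 regions called in all 18 libraries. Each point is a library, blue for WT and red for KO. KO points lie to the right of most WT points in the upper 8 rows and to the left in the rows of Col5a1 and Col27a1, with overlap in every row.

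From D1 to D5, fewer collagen gene ends and elements were called in both genotypes and both media. At D5, gene-end peaks were called at 8 and 8 collagen genes in WT CTL, 11 and 11 in WT MR, and 10 (CTL) and 8 (MR) in KO line 2, against 12 to 22 at D1. The mean difference was -7.88 genes, with a spread of 1.61 (SD), lower in 4 of 4 combinations of genotype and medium. As a share, this was 38.9% of collagen genes at D1 and 21% at D5, against 48.2% and 38.3% of all genes. Elements fell from 138 to 281 a library at D1 to 60 to 133 at D5, a mean difference of -110 with a spread of 43.6 (SD). In KO, each mean difference between these days sets line 2 at D5 against both lines at D1. Line 2 alone went from 16 (CTL) and 12 (MR) collagen genes with a gene-end peak at D1 to 10 and 8 at D5. Its elements went from 176 and 138 to 106 and 75. D5 lists were shorter as well, at 20847 to 39538 peaks against 35201 to 69881, and per 1000 regions the elements differed by -0.628 with a spread of 0.259 (SD), lower in 4 of 4. Within KO line 2 the elements per 1000 regions were 4.04 (CTL) and 4.05 (MR) at D1 and 3.64 and 3.46 at D5. When only the 20000 strongest peaks of every list were kept, the differences were -0.5 genes and -10.6 elements. In bulk cells, fewer cells with an open site and weaker signal per cell cannot be told apart.

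No single collagen gene end or element passed the threshold between D5 and D1: of 1298 genes and 14311 regions tested over the genome, 0% were called. At an unadjusted p under 0.05 the exact test gave 5 collagen gene ends, all lower, Col1a2, Col4a1, Col4a2 and Col7a1 (each p = 0.0278, adjusted p = 0.0669) and Col14a1 (p = 0.0401, adjusted p = 0.0735), and 34 elements, all lower. These are 5 of 8 gene ends tested (62.5%) and 34 of 65 elements (52.3%), near the 54.6% of all gene ends and 50.1% of all regions tested that were lower at that p. Both the 5 and the 8 count Col4a1 and Col4a2 separately, though their calls are 1 observation. The largest difference was -0.875, with an adjusted p of 0.0724 by the exact permutation test, shared by 9 elements, of which 2 lie at Col1a1 and 1 each at Col5a1, Col12a1 and Col18a1. With the KO libraries paired by line (a replicate block of the KO lines only, which leaves out KO line 1), Col7a1 (adjusted p = 0.0422 by the exact permutation test) and 15 elements passed, all lower; over the genome 291 gene ends and 3512 regions passed. With the 2 short lists included, 5 collagen gene ends and 56 elements passed, all lower, among 1138 gene ends and 10687 regions over the genome.

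Elements per gene differed from D1 to D5 at Col26a1 alone among 42 collagen genes, by -0.612 per 10000 regions (exact permutation p = 0.00309, adjusted p = 0.0381). Over the genome, 6.6% of genes were called higher and 1.49% lower. In WT, Col26a1 held 12, 6, 8 and 7 elements at D1 and 2, 2, 3 and 4 at D5. In KO line 2 it held 3 and 2 at D1 and 0 and 0 at D5. Under the replicate block of the KO lines, with the strongest 20000 peaks, and in each fit without 1 WT replicate number or 1 KO line, 0 genes of the whole genome passed, and its difference lay between -0.737 and -0.487.

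In rank, 3 of 32 collagen regions differed between D5 and D1, 1 higher (3.1% of all regions were) and 2 lower (3.31%). Both lower ones lay inside Col27a1. That at 63316066 to 63316697 stood at percentiles 53.3 to 87.4 at D1 and 6.91 to 62.1 at D5, with overlap, a difference of -34.5. That at 63310344 differed by -33.9, and it also ranked lower at D0 than at D1 within each genotype: 43.7 and 56.4 in WT at D0 against 70.8 to 82.3 at D1, and 9.83 and 21 in KO at D0 against 48.3 to 60.3 at D1. The higher one, in the flank of Col11a2 at the ends of Slc39a7 and Rxrb, moved by 4.3 among the weakest regions. Each had an exact permutation p of 0.00309, the least possible here, and an adjusted p of 0.0482, and under the replicate block of the KO lines or in any fit without 1 WT replicate number or 1 KO line 0 of the 11144 regions passed. Ranked by fold enrichment, that at 63316066 did not pass (adjusted p = 0.123, exact permutation test).

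Between D0 and D1 in control medium the number of collagen genes with a gene-end peak differed by 1.5 (spread 2.69, SD) and the number of elements by 29.5 (spread 73.6, SD), both within the spread. No test was made, since an exact two-sided permutation test of these libraries cannot give a p under 0.0556. The largest differences in calls were at an element in the flank of Col1a1, at 94929777 to 94929970, and one inside Col24a1, at 145471220 to 145471377 on chromosome 3, each called in all 4 D1 CTL libraries and in 0 of 4 at D0. What share of all regions shows the same calls is not given. The D1 CTL lists were also longer, with a mean of 53356.8 peaks against 46624.5 at D0.

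Methionine restriction gave no called change at any collagen gene or element. Over the genome, 0% of 218 gene ends, 0% of 2611 regions, 0% of 11144 ranks and 0% of 15131 genes by elements passed. The collagen genes gave 0 testable gene ends and 3 testable elements, none with an unadjusted p under 0.05. By rank, 5 of 32 (15.6%) had an unadjusted p under 0.05 in the exact test, against 19.6% of all regions. By elements per gene these were 3 of 42 (7.14%), against 6.54% of all genes: Col19a1 with a difference, MR minus CTL, of 0.186, Col26a1 with -0.236 and Col11a2 with -0.161 (adjusted p of 0.647, 0.682 and 0.647). The largest difference in calls was 0.5 in either direction, at 6 elements, among them 2 inside Col5a1 and 1 each inside Col18a1, Col24a1 and Col15a1. Numbers of elements moved with medium in opposite directions by genotype: MR minus CTL was 33 and 71 in WT at D1 and D5, and -52.5 and -31 in KO. The lengths of the lists moved the same way, and per 1000 regions the mean difference was 0.00246 with a spread of 0.259 (SD). That mean joins a difference of 0.502 in WT at D5 with differences of -0.198 in WT at D1, -0.11 in KO at D1 and -0.184 in KO at D5.

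Of 30 genes for the making and processing of collagen, all were in the gene table and 27 had a gene-end peak in at least 1 library. A peak was called in all 18 libraries at 12 of them (40%), against 6.82% of the collagen genes themselves and 25.7% of all genes. They include Serpinh1, the collagen chaperone of the endoplasmic reticulum, P4ha1, a subunit of prolyl 4-hydroxylase, Plod3, a lysyl hydroxylase, Loxl1, a crosslinking enzyme, and Sparc, a collagen-binding matrix protein. None passed the threshold in any contrast, with 4 testable by genotype, 0 by medium and 4 between D5 and D1. P3h3, a prolyl 3-hydroxylase, and Adamts14, which trims the ends of procollagen, each had a peak in 10 WT libraries but 4 KO libraries (exact permutation p = 0.0278, adjusted p = 0.0881). P4hb, Plod2 and Loxl2 had a gene-end peak in 0 libraries.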

How the data were processed

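ATAC-seq peak lists of 20 libraries were used, 787806 peaks in all, as the authors deposited them. The lists have no header, so the units follow the broadPeak layout: an integer score that is 10 times the -log10 q-value, a fold enrichment over background, and the -log10 p-value and -log10 q-value of each peak, all the authors' own values as deposited. No list held a -log10 q under 1. The build is GRCm38, per the submitters' processing notes; the aligner and the peak caller are not given in the sources used here, and read depth is unknown, so the number of peaks stands in for it. How replicates were treated before calling is likewise not given, but each library has its own list.

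Peaks of the 20 lists were merged into regions. Genes and promoter sequences came from RefSeq, GRCm38.p6. A gene end was called where a peak overlapped 1 kb on either side of it, and elements lay within 10 kb of the span. Tests were exact two-sided permutations of libraries within conditions, with 1944 arrangements by genotype, 432 by medium and 324 between D5 and D1, so the smallest possible p were 0.000514, 0.00463 and 0.00309. Benjamini-Hochberg adjustment ran over all testable features of the genome, and the tests were tested on simulated data. The test of elements per gene, and pairing by KO line alone, were chosen after seeing the data. The collagen genes and the other lists were chosen with earlier results of these data known. Collagen genes and elements were named with values where they passed the threshold in any contrast, where they belong to muscle connective tissue or basement membrane, and where an element was among those of largest difference in its contrast. Col7a1 and Col17a1 at gene ends, Col25a1, the unadjusted results and the starts inside spans were added after their values were seen.

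KO numbers name lines, and KO libraries of 1 line deviated together (correlations 0.357 to 0.542 over 3 pairs of groups), so the KO libraries are paired by line; the WT numbers are not tied to a shared source (-0.051 to 0.12 over 10 pairs). Alternatives were the strongest 20000 peaks per list, a -log10 q of at least 2, a peak cover of 50%, a 2 kb window, a 5 kb flank, rank by fold enrichment or within chromosomes, all 20 libraries, no D5 libraries, each replicate number left out, and replicate blocks. Python 3.11.15, NumPy 2.4.6, pandas 2.3.3, SciPy 1.17.1 and matplotlib 3.10.9 were used.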

Additional observations from a re-analysis of the deposited data

Results flagged for a closer look

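The number of collagen genes with a gene-end peak moved with methionine restriction at D1 in opposite directions in the 2 genotypes. It went from a mean of 17 in CTL to 20.5 in MR in WT, a change of 3.5, and from 17.5 to 13.5 in KO, a change of -4, so the changes differed by -7.5 genes. Both MR libraries of WT lay above both of its CTL libraries, and both MR libraries of KO lay below both of its CTL libraries. The difference was not tested. Over all genes of the genome the number moved the same way, by 760 genes in WT (48.4% of genes in CTL, 51.9% in MR) and by -1091 in KO (48.7% and 43.7%). The lists of MR were longer than those of CTL in WT and shorter in KO, and their part in the difference was not tested.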

How the results depend on the processing

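With the strongest 20000 peaks per list, genotype calls numbered 0 gene ends, 18 elements and 9 genes by elements per gene. Over the genome these were 0 gene ends, 2893 regions and 979 genes, against 52, 2257 and 2052 with whole lists. Of the collagen elements, 46 could be tested there, against 81 with whole lists. D5 against D1 gave 0 genes by elements per gene, and the D5 minus D1 differences were -0.5 genes with a gene-end peak and -10.6 elements. A -log10 q of at least 2 gave 0 gene ends by genotype (18 over the genome) and 2 genes by elements per gene between days (1220 over the genome). A cover of 50% gave 0 elements by genotype and 0 genes by elements per gene between days, both 0 over the whole genome as well. A 2 kb window moved the D5 minus D1 difference in gene-end genes to -10.9, and ranks within chromosomes gave 0 calls between days. All 20 libraries gave 0 gene ends, 16 elements and 7 genes by elements per gene by genotype, and 5, 56 and 0 between days, with a gene-end difference of -10.1; Col5a3 reversed there in elements per gene (adjusted p = 0.969, exact permutation test), and the cause was not tested. Without the D5 libraries, gene ends, ranks and elements per gene gave 0 calls by genotype, with fewer libraries to rearrange; those fits called 0 features over the whole genome. Unscaled elements per gene gave 4 calls by genotype and 9 between days. Counts over the genome are not given here for these calls or for the element calls of the replicate block over all numbers.

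The replicate block over all numbers gave, by genotype, 0 gene ends, 18 elements, 0 ranks and 0 genes by elements per gene, and between days 1 element, 0 ranks and 0 genes; its WT numbers share only a number. The replicate block of the KO lines only, between days, gave 1 gene end, 15 elements, 0 ranks and 0 genes by elements per gene, and it changed no other count. Leaving out 1 replicate number or line at a time, genotype calls ranged over 0 to 0 gene ends, 0 to 40 elements, 0 to 12 ranks and 0 to 8 genes by elements per gene. Calls between days ranged over 0 to 1 gene ends, 0 to 15 elements, 0 to 0 ranks and 0 to 0 genes. Where such a fit gave 0, it also gave 0 over the whole genome. Counts over the genome for the upper ends of the genotype ranges in ranks and in genes by elements per gene are not given here. The genotype difference in elements ranged over -33.4 to 63.7. Its ends cover different conditions, since leaving out KO line 2 also removes D5 and leaving out KO line 1 does not. Every such fit has fewer arrangements of labels than its main test, so a lack of calls in it cannot be read as a lost difference. A 5 kb flank moved no count past 1.5 times, nor did ranking by fold enrichment. Read depth is unknown, so an element that was not called may be open below the detection of its list.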
